A study of Rattus norvegicus with 52 samples.

Results

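Whole lung RNA from rats given DDAC at 0.25 was compared with lung RNA from rats given BKC at 1, the highest dose of each compound in the series. The members are the 4 libraries titled DDAC 0.25 and the 4 titled BKC 1, 8 of 52 libraries, and every gene was compared. All were SD rats labelled WT (wild type) that received a single instillation into the trachea. The 4 Control rats received distilled water (DW in the labels). Their libraries serve below as a reference level and share in the estimate of spread, and the contrast itself does not weigh them. BKC was also given at 0.25 and 0.5 and DDAC at 0.0625 and 0.125, and further groups of the series received compounds known by the code names ABD and ADEB18. The unit of the doses, the age and sex of the rats and the time between instillation and sampling are not stated in the labels. Because both compound and dose value differ between the groups, a difference due to the compound and one due to the dose cannot be told apart. The series description gives 4 animals a group, and the labels do not state their litters or the days of handling. The p-values measure the spread between libraries within groups, estimated over all 52 libraries of the series.

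BKC commonly stands for benzalkonium chloride and DDAC for didecyldimethylammonium chloride, which the labels do not spell out. Both are quaternary ammonium compounds, positively charged surfactants that disinfect by disrupting membranes. The first carries a benzyl group and the second a pair of decyl chains. In the alveoli a surfactant meets the thin type 1 cells that cover most of the gas exchange surface, the type 2 cells that make lung surfactant, resident macrophages and capillaries. Injured lung is known to release chemokines that draw monocytes and to replace lost epithelium by cell division, and dividing and secreting cells make more protein and membrane lipid.

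The 8 libraries held 8666430 to 11836515 counts and 17990 to 19159 genes with at least 1 count. Markers of lung were high in all of them: Sftpc, the surfactant protein C of type 2 cells, stood at 7230 to 12999 CPM (counts scaled to a common library size) and Ager, a receptor of type 1 cells, at 1019 to 2324 CPM. RNA of genes typical of other tissues was unevenly present, and its source was not tested. The summed level of 12 cardiac muscle genes was 131, 207, 133 and 130.4 CPM in DDAC 0.25 replicates 1 to 4 and 1499, 547, 897 and 122 CPM in BKC 1 replicates 1 to 4. Myh6, the atrial heavy myosin, was at 0 in DDAC 0.25 replicate 1 and in BKC 1 replicate 4, while Actc1, cardiac actin, was at 108 CPM or more in every library. All 12 had negative log2 fold changes; 9 had an unadjusted p under 0.05, 0 were called by edgeR and 1 by DESeq2. The 11 markers of mesothelium, fat and skeletal muscle summed to 63.6, 76.4, 78 and 112 CPM in DDAC 0.25 and 131, 165, 124 and 126 CPM in BKC 1. A clock score, the mean log2 level of Dbp, Nr1d1, Nr1d2, Per3 and Tef minus that of Bmal1 and Npas2, ran from 3.88 to 4.84 in DDAC 0.25 and from 2.28 to 3.98 in BKC 1. The part of these differences in the results below was not tested, beyond fits that carry the clock or cardiac score as a covariate.

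Of 17796 genes tested, 625 differed at an adjusted p under 0.05, 3.51% of them, and are the called genes below. A gene is written as higher or lower in DDAC 0.25 than in BKC 1, with its log2 fold change ± SE. Higher were 297 genes, 1.67% of those tested, with a median log2 fold change of 0.67, and lower were 328, 1.84%, with a median of -0.674. The median over all genes tested was -0.00526. Called and at least 2-fold apart were 111 genes (0.624%), 57 higher (0.32%) and 54 lower (0.303%). The series description uses an unadjusted p under 0.05 with a 2-fold limit, which 522 genes passed (2.93%), 231 higher and 291 lower. The groups did not overlap for 1922 genes (10.8%), 947 higher (5.32%) and 975 lower (5.48%), and 508 of the called genes were among them.

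The number of calls rested on single libraries. It was 111 without BKC 1 replicate 2, 162 without DDAC 0.25 replicate 4, 192 without BKC 1 replicate 4 and 199 without DDAC 0.25 replicate 1, while leaving out any of the other 4 gave 578 to 808. Of the 625 genes, 77 stayed called in all 8 of these fits, 28 higher and 49 lower, and are said below to hold without any 1 library. With the 8 libraries fitted alone, 119 genes were called, 100 of them among the 625. With the clock score as a covariate 64 were called, with the cardiac score 315, and with the log2 level of the mitochondrial ribosomal RNA mt-Rnr2 471. Because the clock score itself differed between the groups, a call lost with it cannot be assigned to the clock. Of 96 called genes named or listed here, 31 stayed called with the 8 libraries alone and 23 with the clock score.

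**Figure D1:**
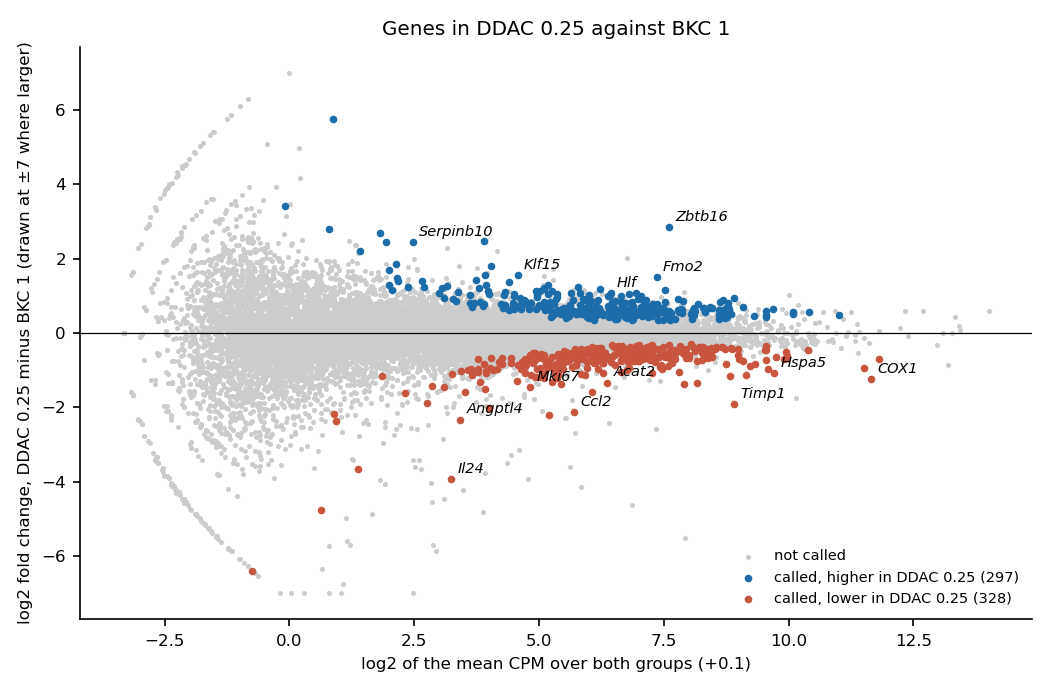
Log2 fold change of each of the 17796 tested genes, DDAC 0.25 minus BKC 1 (y axis), against its log2 level (x axis), with the 297 genes called higher, the 328 called lower and those not called in separate colours. Zbtb16 at 2.85 and Il24 at -3.93 are the most distant of the genes named by size.

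Genes of cholesterol synthesis stood together below their BKC 1 level. All 24 tested members of the list of cholesterol synthesis and SREBP2 target genes had a negative log2 fold change, 14 were lower by the test and 0 higher, and their median was -0.69 against -0.00526 for all genes. Sterol synthesis runs from acetyl-CoA through mevalonate and squalene to lanosterol and cholesterol, and the transcription factor SREBP2 is known to raise its enzymes when sterol in membranes drops.

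Along that path, Acat2, the thiolase of the opening step, was at 38.9, 62.5, 52.4 and 33.6 CPM in DDAC 0.25 and 109, 127, 105 and 131 CPM in BKC 1, with no overlap (-1.33 ± 0.27, adjusted p = 0.00287). Cyp51, the lanosterol demethylase, was at 63.6, 104, 80.05 and 57.5 CPM against 148, 109, 132 and 198 CPM (-0.94 ± 0.19, adjusted p = 0.0039). Every BKC 1 library lay above every DDAC 0.25 library in both genes. Dhcr7, which makes cholesterol from its last precursor, was at 6.85 to 13.8 CPM against 14.9 to 27.9 CPM (-1.01 ± 0.21, adjusted p = 0.00363). These 3 genes held without any 1 library, and Cyp51 and Dhcr7 were not called with the 8 libraries alone. Hmgcs1, the HMG-CoA synthase, was lower too (-0.76 ± 0.18, adjusted p = 0.0126; up to 0.0801 without BKC 1 replicate 4 or DDAC 0.25 replicate 1). Called too were Ebp, Fdft1, Fdps, Hsd17b7, Insig1, Msmo1, Sc5d and Sqle, with log2 fold changes from -0.97 to -0.55; the call of each ended without at least 1 library, with adjusted p from 0.0535 for Sc5d to 0.261 for Ebp at most.

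Beside the water controls, 11 of the 24 were higher in BKC 1, where 5.79% of all genes were higher and 4.56% lower, and 0 were higher in DDAC 0.25, where 1.56% were higher and 0.91% lower. Mean levels of Acat2 were 47.7 CPM in Control, 40.8 CPM in BKC 0.25 and 104 CPM in BKC 0.5, and those of Cyp51 64.8, 70.5 and 118 CPM. The count of 14 was 5 without DDAC 0.25 replicate 1, 7 with the clock score as a covariate, 8 with the cardiac score and 6 with the 8 libraries alone. Summed levels of the list were 1106, 1459, 1392 and 1194 CPM in DDAC 0.25 replicates 1 to 4. In BKC 1 replicates 1 to 4 they were 1992, 1779, 2058 and 2204 CPM. Beyond the fit with the cardiac score, the part of cardiac RNA in these levels was not tested.

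Chaperones of the endoplasmic reticulum were lower too. In the list of unfolded protein and integrated stress genes, 6 of 18 tested members were lower, 1 was higher, and the median was -0.53. When unfolded protein collects in this compartment, the sensors Ire1, Perk and Atf6 are known to raise chaperones, in part through the endoplasmic reticulum stress element (ERSE) of their promoters. Its letters are CCAAT, then 9 bases of any kind, then CCACG. Of the 7 called members 4 hold it, and their promoters are shown for that reason. Each is the 250 bases before the RefSeq start site in assembly GRCr8, read 5' to 3' on the strand of the gene, with the element or its reverse complement in capitals. They lie at chr3:38452766-38453015 on the plus strand (Hspa5), chr19:40213117-40213366 on the plus strand (Calr), chr7:121789134-121789383 on the plus strand (Creld2) and chr7:23012294-23012543 on the minus strand (Hsp90b1).
Hspa5: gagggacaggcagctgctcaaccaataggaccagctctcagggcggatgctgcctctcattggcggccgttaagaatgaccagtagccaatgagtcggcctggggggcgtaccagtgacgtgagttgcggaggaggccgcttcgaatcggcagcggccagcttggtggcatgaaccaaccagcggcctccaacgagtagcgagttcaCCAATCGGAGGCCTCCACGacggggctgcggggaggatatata
Calr: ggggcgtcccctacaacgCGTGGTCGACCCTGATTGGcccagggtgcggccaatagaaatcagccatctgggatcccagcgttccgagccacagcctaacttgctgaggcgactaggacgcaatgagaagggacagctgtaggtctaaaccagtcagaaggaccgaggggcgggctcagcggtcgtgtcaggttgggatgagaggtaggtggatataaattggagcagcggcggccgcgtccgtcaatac
Creld2: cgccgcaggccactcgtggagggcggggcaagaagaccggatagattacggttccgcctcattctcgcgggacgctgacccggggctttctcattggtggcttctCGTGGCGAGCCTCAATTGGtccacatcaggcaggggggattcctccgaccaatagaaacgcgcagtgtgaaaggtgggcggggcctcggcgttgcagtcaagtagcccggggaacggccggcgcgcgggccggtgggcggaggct
Hsp90b1: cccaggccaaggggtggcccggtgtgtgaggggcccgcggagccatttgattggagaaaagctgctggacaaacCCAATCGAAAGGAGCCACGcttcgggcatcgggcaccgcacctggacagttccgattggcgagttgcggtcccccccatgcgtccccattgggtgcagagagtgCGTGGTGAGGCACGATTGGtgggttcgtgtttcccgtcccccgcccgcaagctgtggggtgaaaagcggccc

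Both strands were searched from 250 bases before to 50 after each start site. The element was present in 5 of the 15 list members with a promoter in the RefSeq table, the 4 above and Xbp1, and in 22 of all 33469 promoters, 0.0657%. The called members Dnajb11 and Herpud1 were searched and do not hold it, and Manf was not searched. Xbp1, a transcription factor of the response, was not called (-0.18, adjusted p = 0.383). A match describes letters in this window and no more. In the same way an E2F site (TTTCCCGC or TTTGGCGC) was found in 4 of 19 promoters of the cell cycle list, Mcm3, Mcm5, Mcm6 and Tyms, and in 485 of all promoters, 1.45%. Of these 4 genes, Mcm5 (adjusted p = 0.206) and Tyms (adjusted p = 0.845) were not called. A sterol regulatory element (TCACNCCAC) was found in 0 of 17 promoters of the cholesterol list and in 374 of all promoters, 1.12%, which says only that these letters are not in those windows.

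Hspa5, the main Hsp70 chaperone of the endoplasmic reticulum, was at 543, 626, 545 and 457 CPM in DDAC 0.25 and 842, 1433, 787 and 1508 CPM in BKC 1. The groups did not overlap, and within BKC 1 replicates 2 and 4 stood above replicates 1 and 3. The mean of Hspa5 was 706 CPM in Control, between the 2 groups, and 402, 440 and 543 CPM in DDAC from the lowest to the highest dose. In BKC the means were 526, 988 and 1143 CPM in the same order. It held without any 1 library (-1.07 ± 0.16, adjusted p = 0.000601), as did Calr, the lectin chaperone calreticulin, at 356 to 505 CPM against 627 to 966 CPM (-0.88 ± 0.15, adjusted p = 0.00112). Creld2, a secreted stress protein, stood at 14.4 to 31.5 CPM against 29.2 to 62.3 CPM, with overlap (-0.93 ± 0.23, adjusted p = 0.0151; up to 0.119 without BKC 1 replicate 2 or 4 or DDAC 0.25 replicate 4). Hsp90b1, the chaperone Grp94, was at 514 CPM in BKC 1 replicate 4, beside 199.9 to 255 CPM in the other 3 (-0.67 ± 0.19, adjusted p = 0.0364; up to 0.401 without BKC 1 replicate 2 or 4 or DDAC 0.25 replicate 1, 3 or 4). Manf, a secreted stress factor, and Dnajb11, a co-chaperone of Hspa5, were lower by 0.71 and 0.64 on the log2 scale, and lost their calls without BKC 1 replicate 2 or 4 or DDAC 0.25 replicate 1 or 4 (adjusted p up to 0.145 and 0.151).

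One member went the other way. Herpud1, part of the machinery that degrades endoplasmic reticulum protein, was at 241, 221, 244 and 245 CPM against 204, 171, 193 and 166 CPM (0.37 ± 0.09, adjusted p = 0.0137; up to 0.0983 without BKC 1 replicate 2 or 4 or DDAC 0.25 replicate 1 or 4). Against Control, 8 members were higher in BKC 1 and 0 lower, while DDAC 0.25 had 1 higher, Herpud1 (0.43, adjusted p = 0.00853), and 1 lower. The 7 calls of the list became 2 without BKC 1 replicate 2 or 4 or DDAC 0.25 replicate 4, and 2 with the clock score as a covariate and 3 with the 8 libraries alone.

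**Figure D2:**
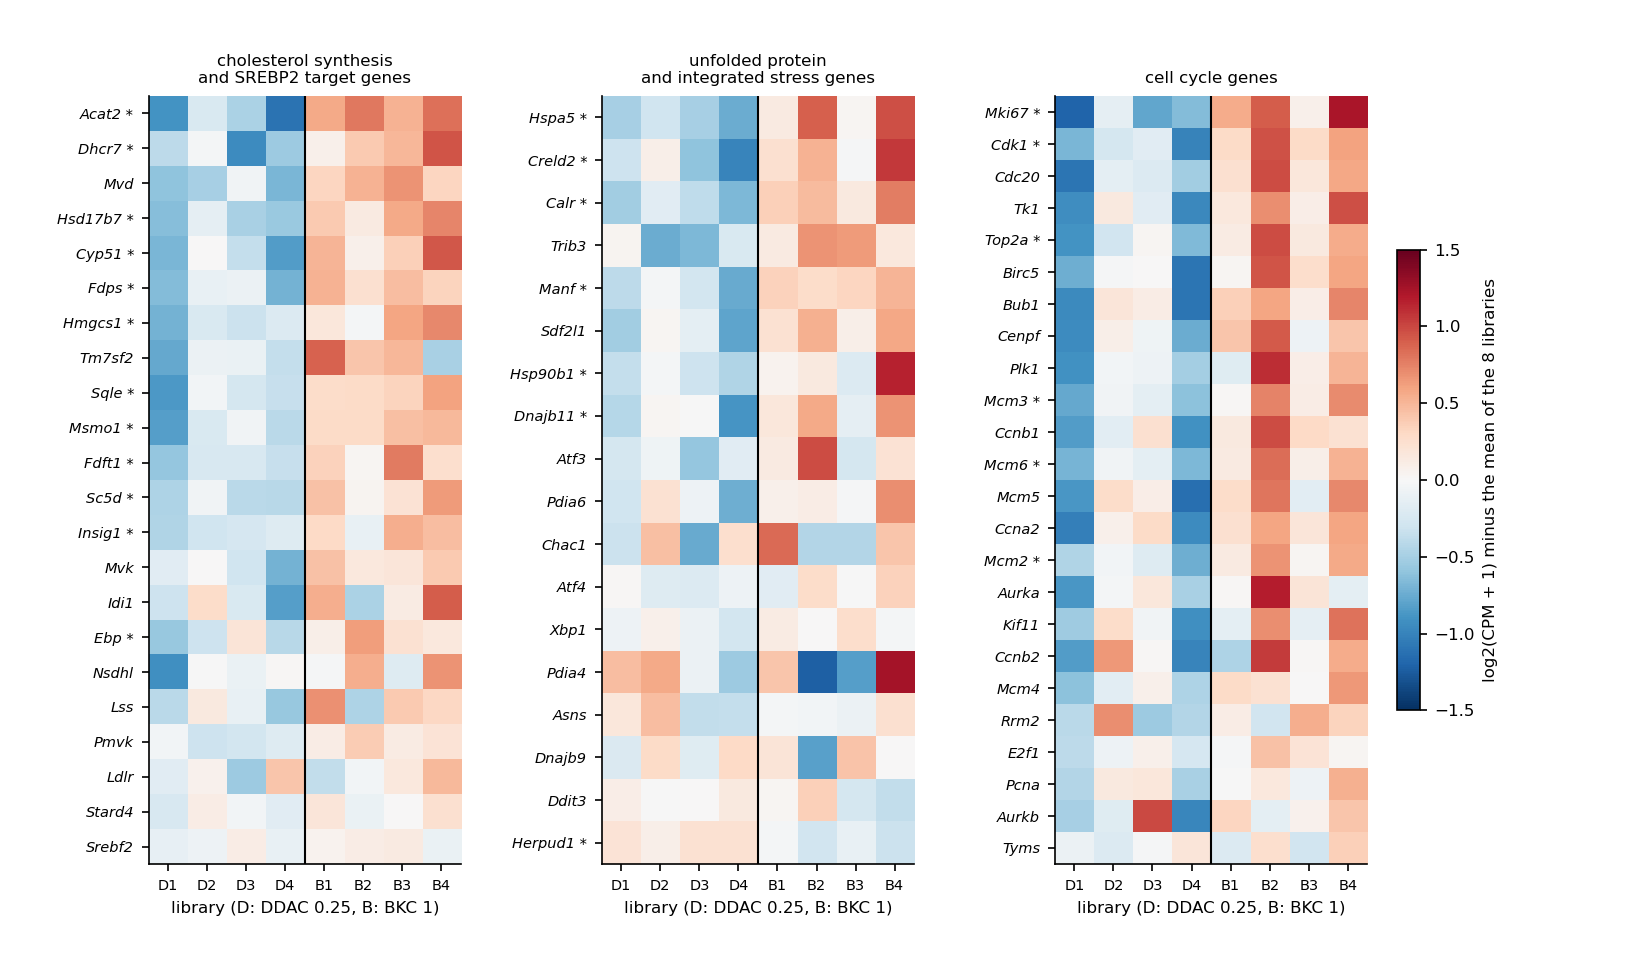
Log2(CPM + 1) of members of 3 gene lists, 22 of cholesterol synthesis among them (rows, an asterisk marks a called gene), in the 8 libraries (columns), as the difference from the gene's mean over the 8 libraries, with colours saturating at 1.5. All cholesterol and cell cycle genes shown have a negative log2 fold change.

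Some cell division genes were also lower. All 24 tested cell cycle genes had negative log2 fold changes with a median of -0.79, and 6 were lower, Mki67, Cdk1, Top2a, Mcm2, Mcm3 and Mcm6. Mki67, the proliferation antigen of dividing cells, was at 9.93, 22, 13.7 and 15.1 CPM in DDAC 0.25 and 36.1, 46.5, 25.6 and 57.7 CPM in BKC 1, against a mean of 18.6 CPM in Control (-1.45 ± 0.32, adjusted p = 0.0082). It held without any 1 library, and was not called with the clock score or with mt-Rnr2 as a covariate. Mcm3, a subunit of the replicative helicase, was at 21.9 to 36.7 CPM against 38.5 to 64.6 CPM (-0.82 ± 0.20, adjusted p = 0.0151), and Cdk1, the kinase of mitotic entry, at 35 to 63.3 CPM against 87 to 139 CPM (-1.06 ± 0.29, adjusted p = 0.0298). The 5 called members other than Mki67 lost their calls without BKC 1 replicate 2 or 4 or DDAC 0.25 replicate 1 or 4, with adjusted p up to 0.242. Summed list levels were 639, 1007, 1047 and 668 CPM in DDAC 0.25 and 1154, 1777, 1109 and 1553 CPM in BKC 1. BKC 1 was above Control for 11 members and DDAC 0.25 for 1. The 6 calls became 2 with the 8 libraries alone, 0 with the clock score, 2 with the cardiac score and 3 with mt-Rnr2. Fewer cells of a type and less RNA per cell cannot be told apart in whole tissue.

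The next 8 genes were lower and held without any 1 library. Apart from Ddx21 they were chosen after their values were seen, no list covers them, and nothing is said of their pathways as a group. Fbl, the methyltransferase of box C/D small nucleolar RNPs, was at 118 to 151 CPM against 177 to 335 CPM (-0.90 ± 0.18, adjusted p = 0.00285). Nop58, another core protein of those particles, was at 90.3 to 115 CPM against 141 to 209 CPM (-0.68 ± 0.14, adjusted p = 0.00348). The nucleolar helicase Ddx21, chosen by size, was at 5.54, 7.9, 2.13 and 6.92 CPM against 14.7, 14.2, 15.8 and 23.2 CPM (-1.59 ± 0.31, adjusted p = 0.00279). Eif2s2, a subunit of initiation factor eIF2, was at 369 to 426 CPM against 517 to 707 CPM (-0.59 ± 0.10, adjusted p = 0.00112), and Eif5a, another translation factor, at 215 to 290.2 CPM against 337 to 503 CPM (-0.69 ± 0.14, adjusted p = 0.00287). Odc1, the decarboxylase that makes putrescine, was at 105 to 155 CPM against 153 to 264 CPM, with a slight overlap (-0.85 ± 0.18, adjusted p = 0.00499). Srm, spermidine synthase, was at 15.8 to 37.1 CPM against 43.2 to 78.7 CPM (-0.98 ± 0.20, adjusted p = 0.00287), and Amd1, which supplies the aminopropyl donor, at 257 to 306 CPM against 347 to 588 CPM (-0.66 ± 0.12, adjusted p = 0.0023). With the 8 libraries alone Odc1 was the only one of the 8 that was called, and with the clock score Fbl, Eif5a and Srm were not.

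Chemokines and injury genes separated the groups unevenly. In the list of chemokines and inflammatory cytokines 4 of 23 tested members were lower, Ccl2, Ccl12, Il24 and Tnf, 0 were higher, and the median was -1.06. Ccl2, which draws monocytes through Ccr2, was at 6.24, 43.7, 18.5 and 9.58 CPM in DDAC 0.25 and 77.5, 105, 60.8 and 96.4 CPM in BKC 1, beside a mean of 4.38 CPM in Control (-2.12 ± 0.50, adjusted p = 0.0111). Ccl12, a related rodent chemokine, was at 2.37, 30.03, 15.9 and 3.62 CPM against 49.1, 99.3, 41.5 and 52.3 CPM (-2.22 ± 0.62, adjusted p = 0.0316). In both genes DDAC 0.25 replicates 2 and 3 stood above replicates 1 and 4, and all 4 stood below every BKC 1 library. Both were also higher than Control in DDAC 0.25, by 2.15 (adjusted p = 0.0213) and 2.97 (adjusted p = 0.0175) on the log2 scale, and in BKC 1 by 4.27 (adjusted p = 5.69e-06) and 5.19 (adjusted p = 1.59e-05). Il24, an IL-10 family cytokine, was at 0.44, 3.47, 0.561 and 0 CPM against 7.87, 38.5, 6.31 and 17.7 CPM (-3.93 ± 1.06, adjusted p = 0.0287). Tnf reached 4.25 CPM at most. Leaving out BKC 1 replicate 2, DDAC 0.25 replicate 1 or DDAC 0.25 replicate 4 removed every call of the list, with adjusted p up to 0.0683 for Ccl2, 0.177 for Ccl12, 0.179 for Il24 and 0.155 for Tnf. Without BKC 1 replicate 4 the calls of Ccl12, Il24 and Tnf were lost too. The 4 calls of the list became 2 with the 8 libraries alone, 0 with the clock score, 2 with the cardiac score and 2 with mt-Rnr2. The DESeq2 Wald test called 3 members, and Il24 and Tnf were not among them.

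The same DDAC 0.25 libraries stood apart in genes that did not pass. Spp1, the osteopontin of recruited macrophages, was at 3.6, 39.8, 136 and 6.6 CPM against 369, 425, 89.2 and 229 CPM (-2.59 ± 0.98, adjusted p = 0.134). Lcn2, the neutrophil and epithelial lipocalin, was at 101, 1163, 703 and 112 CPM against 2416, 1425, 1535 and 1612 CPM (-1.75 ± 0.81, adjusted p = 0.251), and Saa3, an acute phase protein, at 3.6, 26.2, 26.8 and 6.49 CPM against 105, 86.1, 41.1 and 76.2 CPM (-2.29 ± 0.73, adjusted p = 0.0652). For Lcn2 and Saa3 the groups did not overlap, and replicates 2 and 3 of DDAC 0.25 were far above replicates 1 and 4. Arg1, arginase, had an adjusted p of 0.0904 and Hmox1, the haem oxygenase of the Nrf2 list, one of 0.0607. In the list of recruited monocyte and macrophage markers 1 of 20 was lower, Lgals3 (galectin 3), which is also on the list of injury-associated epithelial genes, where 2 of 15 were lower with Krt18. The call of Lgals3 ended without BKC 1 replicate 2 or 4 or DDAC 0.25 replicate 1 or 4, and that of Krt18 without any library but BKC 1 replicate 1, with adjusted p up to 0.276 and 0.234. Of 18 acute phase and complement genes, 4 had an unadjusted p under 0.05, 0 were called by edgeR and 1 by DESeq2. Timp1, the metalloproteinase inhibitor, held without any 1 library, at 126, 249.8, 287 and 151 CPM against 391, 1031, 359 and 1265 CPM (-1.90 ± 0.36, adjusted p = 0.00279), but was not called with the 8 libraries alone or with the clock score. The recruited macrophage and injury lists had 0 calls in both of those fits.

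Some markers of structural lung cells were higher in DDAC 0.25. Of 13 alveolar type 1 markers 4 were higher and 0 lower, with a median of 0.63. Col4a3, a basement membrane collagen chain, was at 72.9, 54.8, 42.4 and 36.9 CPM in DDAC 0.25 and 35.1, 9.18, 16.8 and 23.1 CPM in BKC 1 (1.29 ± 0.31, adjusted p = 0.0117). Emp2 and Cav1, membrane proteins of these cells, were higher by 0.65 and 0.70 and Rtkn2 by 0.88. The 4 type 1 calls became 0 with the 8 libraries alone, 0 with the clock score, 1 with the cardiac score and 1 with mt-Rnr2. Ager itself did not pass (0.57 ± 0.20, adjusted p = 0.0945). Leaving out BKC 1 replicate 2 or DDAC 0.25 replicate 1 removed every type 1 call, and leaving out BKC 1 replicate 4 or DDAC 0.25 replicate 4 removed those of Emp2, Cav1 and Rtkn2. Adjusted p then reached 0.0982 for Col4a3, 0.108 for Emp2, 0.209 for Cav1 and 0.22 for Rtkn2. Against Control, 4 type 1 markers were lower in BKC 1 and 1 higher in DDAC 0.25.

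Among club cell markers 3 of 11 were higher and 0 lower, with a median of 0.58. Fmo2, the flavin monooxygenase of lung, was at 313, 256, 188 and 215 CPM in DDAC 0.25 and 171, 40.9, 72.5 and 57.4 CPM in BKC 1 (1.51 ± 0.29, adjusted p = 0.00252). Gsta1, a glutathione transferase, was at 156 to 176 CPM against 51.8 to 117 CPM (0.91 ± 0.18, adjusted p = 0.00287). Both held without any 1 library, but Fmo2 was not called with the 8 libraries alone, nor Gsta1 with the 8 libraries alone or with the clock score. The 3 club cell calls became 0 with the 8 libraries alone, 1 with the clock score, 3 with the cardiac score and 2 with mt-Rnr2. Cyp4b1, a lung cytochrome P450, was higher (0.79 ± 0.19, adjusted p = 0.0133; up to 0.105 without BKC 1 replicate 2 or 4 or DDAC 0.25 replicate 4). Scgb1a1, the secretoglobin that defines club cells, overlapped between groups, with BKC 1 replicate 2 lowest at 1726 CPM (adjusted p = 0.216). Endothelial markers had 3 of 17 higher, Eng, Plvap and Car4, and 0 lower, with Car4 also counted on the resident alveolar macrophage list. Those calls were lost without BKC 1 replicate 2, BKC 1 replicate 4, DDAC 0.25 replicate 1 or DDAC 0.25 replicate 4, with adjusted p up to 0.267 for Plvap, 0.275 for Car4 and 0.177 for Eng. The 3 calls became 1 with the 8 libraries alone, 0 with the clock score, 0 with the cardiac score and 0 with mt-Rnr2. Cldn5, the endothelial claudin, had an adjusted p of 0.0677. Type 2 cell markers gave 1 lower of 13, the mucin Muc1 (-0.72 ± 0.20, adjusted p = 0.0294; up to 0.126 without BKC 1 replicate 2 or DDAC 0.25 replicate 1 or 4), and Sftpc did not pass (0.18, adjusted p = 0.554). Muc1 was not called with the clock score or with the cardiac score or with mt-Rnr2 as a covariate. Relative to Control, 5 club cell and 3 endothelial markers were lower in BKC 1 and 0 of either list higher. DDAC 0.25 had 0 members of these 2 lists called against Control in either direction.

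**Figure D3:**
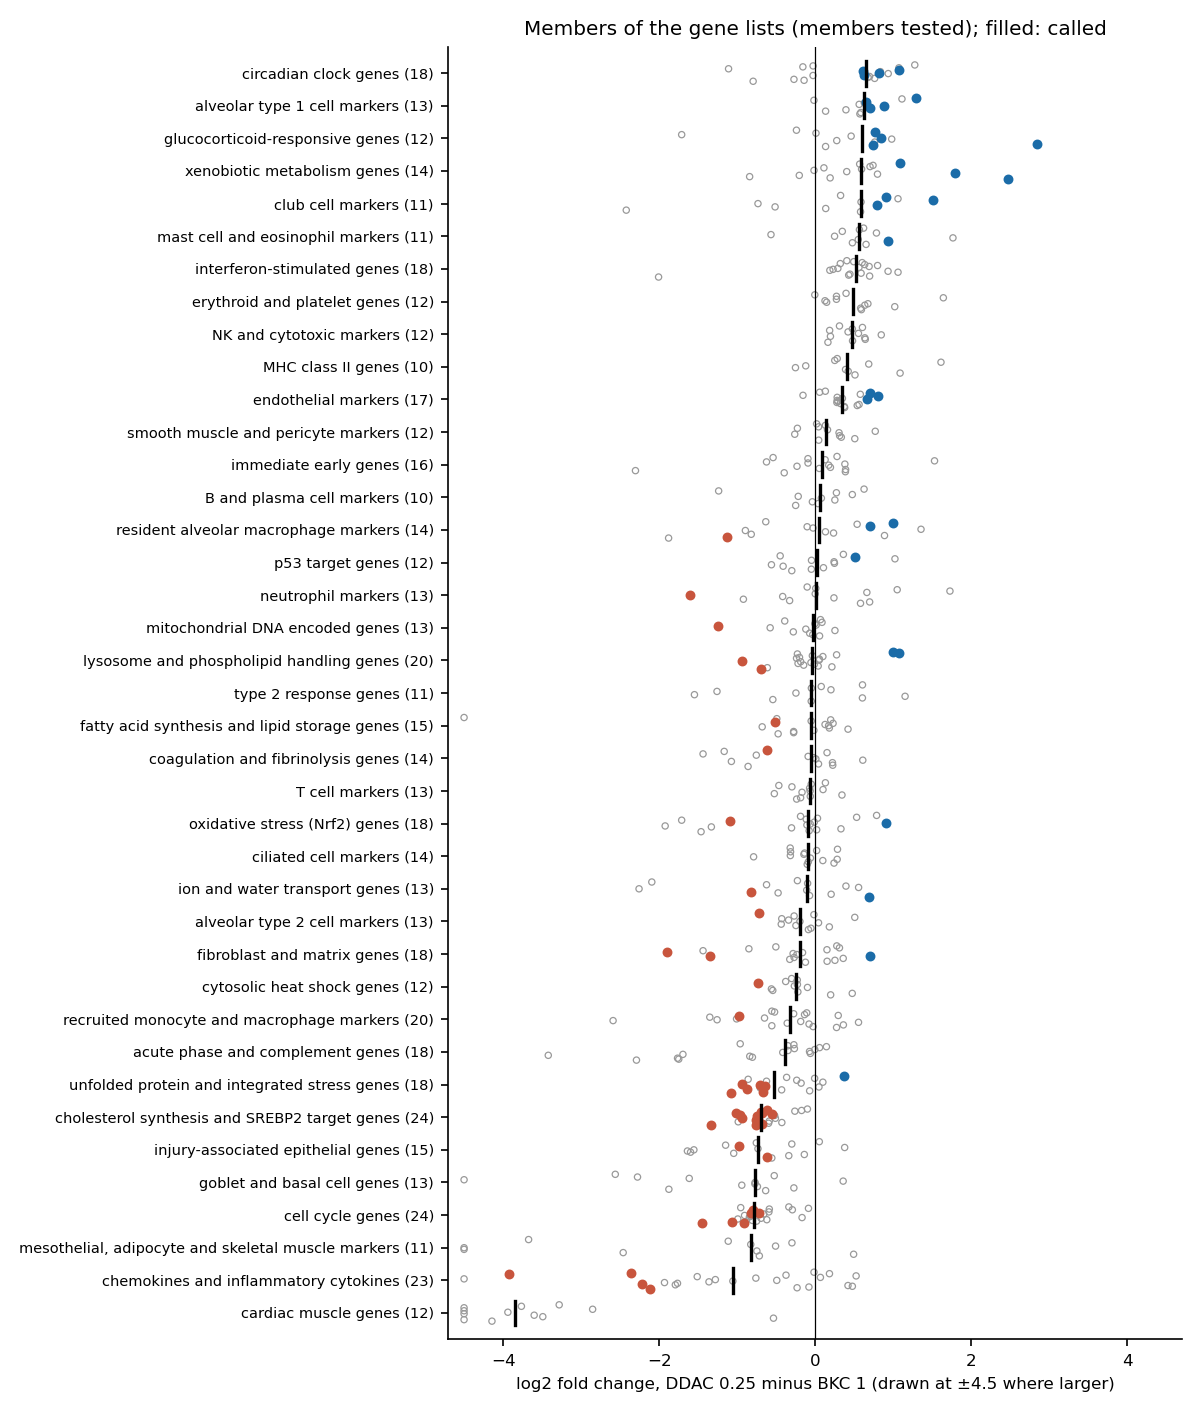
Log2 fold change, DDAC 0.25 minus BKC 1 (x axis), of each tested member of the gene lists (rows); filled points are called, bars are medians, and values beyond 4.5 are drawn at 4.5. Cholesterol synthesis has the most called members, 14 of 24, and the cardiac list has the lowest median with 0 called.

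The largest called difference upward among the genes named by size was that of Zbtb16, a zinc finger transcription factor that glucocorticoids are known to raise. It was at 326, 421, 237 and 379.7 CPM in DDAC 0.25 and 61.1, 34.7, 27.5 and 65.8 CPM in BKC 1 (2.85 ± 0.45, adjusted p = 0.000743) and held without any 1 library. Its Control level ran from 75.1 to 388 CPM. DDAC 0.25 against Control did not pass (0.91, adjusted p = 0.254), and BKC 1 was below Control (-1.94, adjusted p = 0.00263). The mean of Zbtb16 was 39.7 CPM in DDAC 0.0625 and 84 CPM in DDAC 0.125, where libraries ran from 21.1 to 140 CPM. In BKC it was 31.8, 40.7 and 47.3 CPM from the lowest to the highest dose. Means were 29 to 46 CPM in the ADEB18 groups and 55.5 to 119 CPM in the ABD groups. Klf15, another glucocorticoid-responsive factor, was at 45, 33.8, 33.7 and 29.1 CPM against 16.3, 8.02, 16.1 and 7.79 CPM (1.55 ± 0.36, adjusted p = 0.0104; up to 0.0763 without BKC 1 replicate 2 or 4 or DDAC 0.25 replicate 1). In the glucocorticoid-responsive list 4 of 12 tested members were higher, Zbtb16, Klf9, Tsc22d3 and Errfi1, and 0 lower. Klf9, a transcription factor, was higher (0.84 ± 0.19, adjusted p = 0.00925; up to 0.0818 without BKC 1 replicate 2). Tsc22d3, the leucine zipper protein GILZ, was higher too (0.74 ± 0.19, adjusted p = 0.0224; up to 0.121 without BKC 1 replicate 2, 3 or 4 or DDAC 0.25 replicate 1 or 4), as was Errfi1, an inhibitor of the EGF receptor (0.76 ± 0.21, adjusted p = 0.0275; up to 0.12 without BKC 1 replicate 1, 2 or 4 or DDAC 0.25 replicate 1 or 4). The 4 calls of the list became 3 with the 8 libraries alone, 1 with the clock score, 2 with the cardiac score and 2 with mt-Rnr2, and Klf15 was not called with the clock score. Fkbp5, a usual marker of glucocorticoid action, did not pass (0.13 ± 0.22, adjusted p = 0.838). Relative to Control, 0 members of the list were higher and 2 lower in DDAC 0.25, and 1 was higher and 4 lower in BKC 1.

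Circadian clock genes differed in part. Of 18, 4 were higher in DDAC 0.25, Hlf, Nr1d2, Tef and Cry2, and 0 lower, with a median of 0.65. Hlf, an output factor of the clock, was at 104, 127, 121 and 117 CPM against 83.8, 39.97, 57.3 and 41.1 CPM (1.08 ± 0.18, adjusted p = 0.00112), and Nr1d2, a repressor of the clock loop, at 129 to 164 CPM against 67.7 to 97.9 CPM (0.81 ± 0.16, adjusted p = 0.00285). Both held without any 1 library. Nr1d2 and Tef were not called with the clock score, which their own levels enter, so that fit is no separate check of them. The 4 clock calls became 2 with the 8 libraries alone, 1 with the clock score, 3 with the cardiac score and 2 with mt-Rnr2. The call of Tef ended without BKC 1 replicate 2 or 4 or DDAC 0.25 replicate 1, 2 or 4, and that of Cry2 without any library but BKC 1 replicate 1, with adjusted p up to 0.197 and 0.216. Nr1d1 did not pass (0.94 ± 0.32, adjusted p = 0.0866), nor did Dbp (0.84 ± 0.36, adjusted p = 0.214), whose levels of 179, 120.02, 251 and 236 CPM against 178, 85.6, 126 and 49.6 CPM overlapped. Against Control, 8 members were higher and 3 lower in DDAC 0.25, and 7 higher and 1 lower in BKC 1. The hour at which each rat was sampled is not in the labels.

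Lipid transport and macrophage genes split by gene. Abcg1, a sterol exporter of alveolar macrophages, was at 140.4, 127, 138 and 125 CPM in DDAC 0.25 and 81.2, 72.4, 75.3 and 37.1 CPM in BKC 1 (0.996 ± 0.18, adjusted p = 0.00112) and held without any 1 library, and its relative Abca1 was higher (1.08 ± 0.27, adjusted p = 0.0156; up to 0.107 without BKC 1 replicate 4 or DDAC 0.25 replicate 1 or 4). Npc2, which moves cholesterol out of lysosomes, was at 1249, 3157, 2191 and 1387 CPM against 4217, 4003, 3660 and 3373 CPM (-0.93 ± 0.23, adjusted p = 0.0151; up to 0.099 without BKC 1 replicate 2 or DDAC 0.25 replicate 1 or 4). Ctsb, the protease cathepsin B, was lower (-0.69 ± 0.17, adjusted p = 0.0151; up to 0.147 without BKC 1 replicate 2 or DDAC 0.25 replicate 1 or 4). The lysosome and phospholipid handling list held 2 higher and 2 lower of 20. Resident alveolar macrophage markers held 2 higher, Abcg1 and Car4, and 1 lower of 14, the fatty acid binding protein Fabp5 (-1.13 ± 0.29, adjusted p = 0.0201; up to 0.13 without BKC 1 replicate 2 or DDAC 0.25 replicate 1 or 4). Car4 is the same call that the endothelial list counts. The 4 calls of the lysosome list became 2 with the 8 libraries alone, 1 with the clock score, 4 with the cardiac score and 2 with mt-Rnr2. The 3 macrophage calls became 1 with the 8 libraries alone, 1 with the clock score, 2 with the cardiac score and 3 with mt-Rnr2.

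The other genes farthest apart by size were mostly low. Serpinb10, of the serpin family of protease inhibitors, was at 12.1, 6.34, 4.04 and 14.3 CPM against 1.62, 1.28, 2.75 and 1.09 CPM (2.45 ± 0.47, adjusted p = 0.00284). Ackr4, a scavenger receptor for chemokines, was at 15.7 to 32.3 CPM against 4.07 to 12 CPM (1.56 ± 0.32, adjusted p = 0.00337), and Col4a6, a further collagen IV chain, at 19.9 to 24.7 CPM against 4.8 to 10.8 CPM (1.28 ± 0.24, adjusted p = 0.00225). These 3 were higher in DDAC 0.25 without any 1 library, and Ackr4 was not called with the 8 libraries alone. Lower without any 1 library were Noxo1, an organiser of NADPH oxidase, at 3.16 to 9.46 CPM against 16.6 to 37.3 CPM (-2.01 ± 0.43, adjusted p = 0.00539), and Hs3st6, a heparan sulfate sulfotransferase, at 2.55 to 3.48 CPM against 9.32 to 12 CPM (-1.89 ± 0.36, adjusted p = 0.00279). Neither was called with the clock score. Hs3st6 was below Control in DDAC 0.25 too (-1.47, adjusted p = 0.0213), and BKC 1 against Control did not pass (0.42, adjusted p = 0.5).

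Calls of the remaining genes named by size were lost when 1 library was left out. Higher among them were Syt6, a synaptotagmin (2.46 ± 0.65, adjusted p = 0.0255; up to 0.131 without BKC 1 replicate 2 or 4 or DDAC 0.25 replicate 1, 2 or 4), Nat8f3 (1.86 ± 0.55, adjusted p = 0.0469), Cyp2e1, a cytochrome P450 that oxidises ethanol (1.79 ± 0.47, adjusted p = 0.0217; up to 0.123 without BKC 1 replicate 2 or 4 or DDAC 0.25 replicate 1 or 4), and Clec1b, the platelet receptor for podoplanin (1.47 ± 0.42, adjusted p = 0.0364). The call of Nat8f3 ended without any library but BKC 1 replicate 1 (adjusted p up to 0.201), and that of Clec1b without the same libraries as Cyp2e1 (up to 0.164). Lower were Angptl4, an inhibitor of lipoprotein lipase (-2.33 ± 0.51, adjusted p = 0.00783; up to 0.0532 without BKC 1 replicate 2 or 4), Il1r2, a decoy receptor for interleukin 1 (-1.60 ± 0.41, adjusted p = 0.0205; up to 0.101 without BKC 1 replicate 2 or DDAC 0.25 replicate 2 or 4), and Nop56, a nucleolar protein (-1.42 ± 0.41, adjusted p = 0.0394; up to 0.16 without BKC 1 replicate 2 or 4 or DDAC 0.25 replicate 1, 3 or 4). With the clock score none of these 7 genes was called, and with the 8 libraries alone only Cyp2e1 was. Syt6, Nat8f3, Clec1b, Il1r2 and Nop56 were also not called by the DESeq2 Wald test. That test gave an adjusted p to 11239 genes, and a gene without one counts as not called. Angptl4 was at 28 and 29.99 CPM in BKC 1 replicates 2 and 4, beside 7.53 and 5.51 CPM in replicates 1 and 3.

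**Figure D4:**
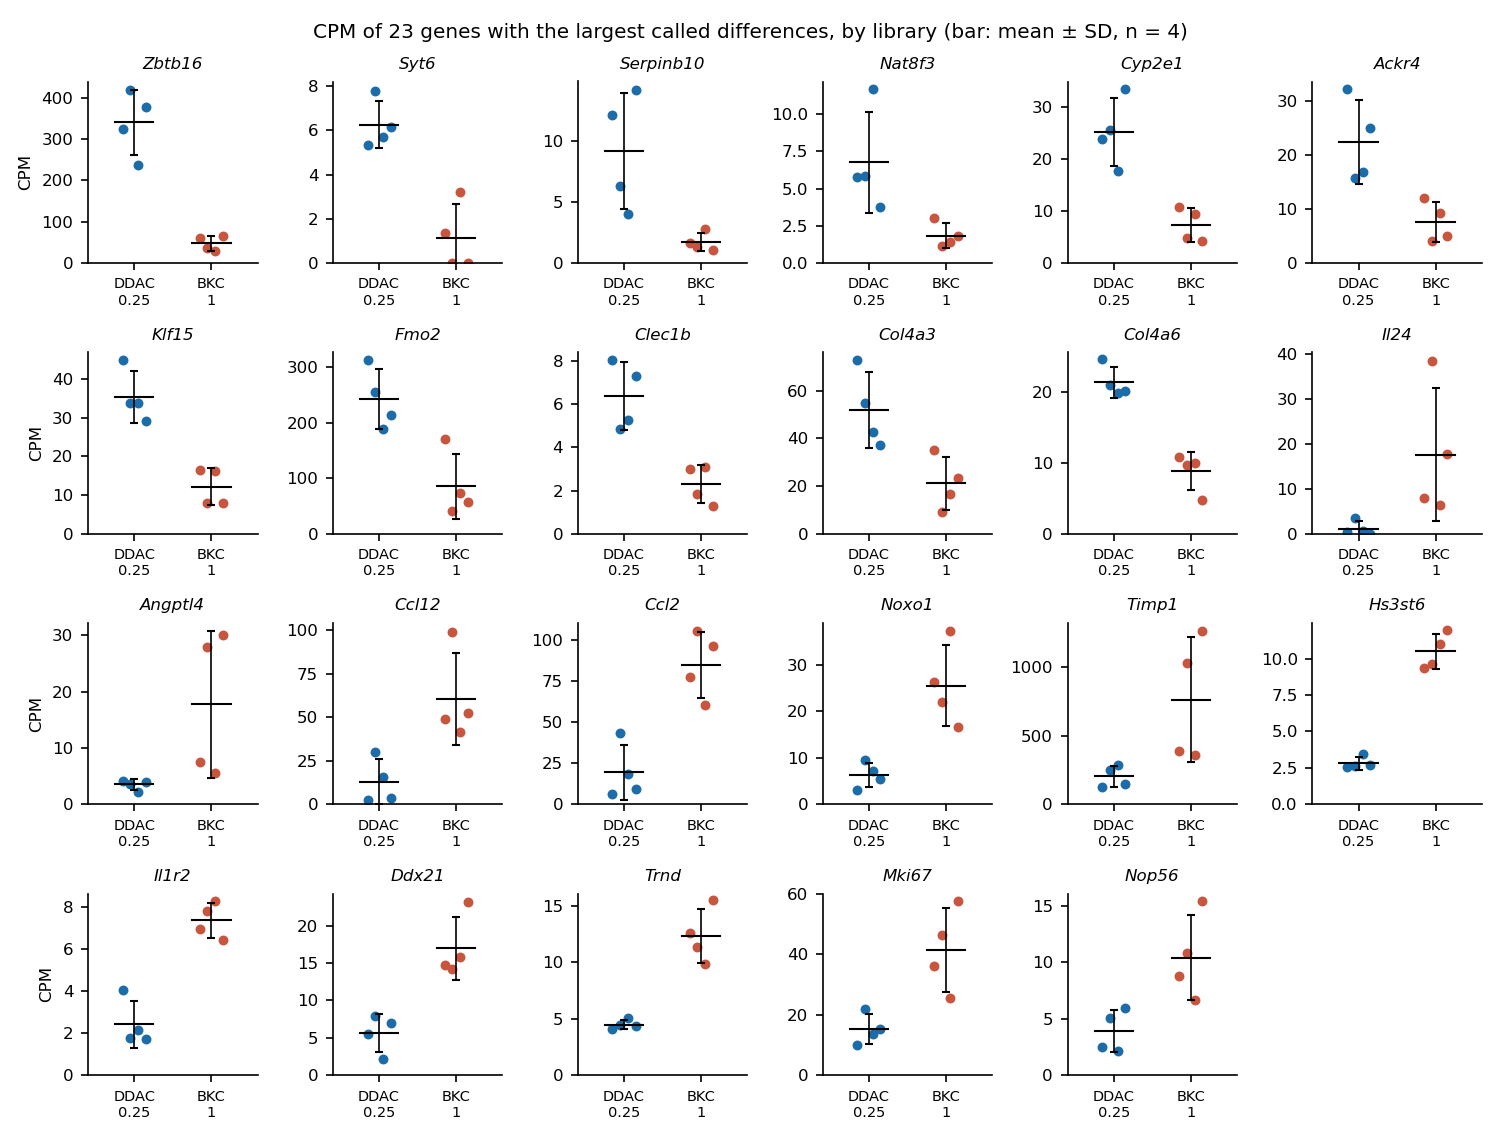
CPM (y axis) of the genes named by size in the 4 DDAC 0.25 and the 4 BKC 1 libraries, 11 higher and 12 lower in DDAC 0.25; lines and bars are the mean ± SD, n = 4. For each gene all DDAC 0.25 points lie on one side of all BKC 1 points, which the rule required.

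Lists of detoxification and stress gave few calls. Of 14 xenobiotic metabolism genes 3 were higher, Cyp2e1, the carboxylesterase Ces1d and Cyp1a1, the last at 44.1, 6.07, 24 and 27 CPM against 14.1, 0.465, 2.75 and 0.362 CPM, with overlap (2.47 ± 0.72, adjusted p = 0.0413; up to 0.2 without BKC 1 replicate 2, 3 or 4 or DDAC 0.25 replicate 1, 3 or 4). Ces1d was higher (1.08 ± 0.31, adjusted p = 0.0402; up to 0.22 without BKC 1 replicate 2 or 4 or DDAC 0.25 replicate 1, 2 or 4). Of 18 Nrf2 genes, Gsta1 was higher and the metallothionein Mt1 lower (-1.10 ± 0.32, adjusted p = 0.0411; up to 0.303 without BKC 1 replicate 2 or 3 or DDAC 0.25 replicate 1, 3 or 4). Of 12 genes in the heat shock list the mitochondrial chaperonin Hspd1 was lower (-0.74 ± 0.20, adjusted p = 0.0274; up to 0.195 without BKC 1 replicate 2 or 4 or DDAC 0.25 replicate 1 or 4). Interferon-stimulated genes had 17 of 18 positive log2 fold changes with a median of 0.53; 5 had an unadjusted p under 0.05, 0 were called by edgeR and 2 by DESeq2. Neutrophil markers had 1 lower of 13, Il1r2. With the clock score these lists had 0 calls, and the 3 xenobiotic calls were 1 with the 8 libraries alone.

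Fibroblast and matrix genes had 1 higher of 18, periostin (Postn) (0.70 ± 0.18, adjusted p = 0.0243; up to 0.179 without BKC 1 replicate 2 or 4 or DDAC 0.25 replicate 1 or 4), and 2 lower, Timp1 and tenascin C (Tnc). Tnc was at 137, 223, 156 and 129 CPM in DDAC 0.25 and 162, 463, 163 and 860.3 CPM in BKC 1 (-1.35 ± 0.31, adjusted p = 0.0103; up to 0.19 without BKC 1 replicate 4 or DDAC 0.25 replicate 4). The 3 calls became 1 with the 8 libraries alone, 0 with the clock score, 3 with the cardiac score and 2 with mt-Rnr2. Single calls came from the lists of mast cell and eosinophil markers (Gata2, higher), coagulation (Anxa2, lower), fatty acid synthesis (Plin2, lower) and p53 targets (Tp53inp1, higher), and ion and water transport had Scnn1a higher and Atp1b1 lower. Leaving out BKC 1 replicate 2, among others, ended each of these calls, with adjusted p up to 0.0818 for Gata2, 0.106 for Anxa2, 0.153 for Plin2, 0.289 for Tp53inp1, 0.179 for Scnn1a and 0.168 for Atp1b1, and none was called with the clock score. T cell, ciliated cell, B and plasma cell, MHC class II, smooth muscle, goblet and basal cell, type 2 response, immediate early, natural killer and erythroid lists had 0 calls by edgeR; 0, 0, 1, 1, 1, 2, 2, 2, 2 and 5 of their members had an unadjusted p under 0.05, and DESeq2 called 1 natural killer marker and 0 in the others.

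The contrast was set beside the lower BKC doses. Against BKC 0.25, the group with the same dose value, 6 genes were called (0.0337%): Zbtb16 higher (0.00562%) and Gnl3l, Mrtfb, Palm2, Stk4 and Trip11 lower (0.0281%). Leaving out 1 library gave 1 to 8, the lowest without BKC 0.25 replicate 1, and DESeq2 gave 44. Against BKC 0.5, 1391 genes were called (7.82%), 784 higher (4.41%) and 607 lower (3.41%), and 364 to 1624 without 1 library, the lowest without BKC 0.5 replicate 3. The 297 genes higher in DDAC 0.25 than in BKC 1 had a median log2 fold change of 0.659 against BKC 0.5 and 0.212 against BKC 0.25, and the 328 lower ones -0.598 and -0.0781. These comparisons share the DDAC 0.25 libraries, so their values are given side by side only. Against Control, 439 genes were called for DDAC 0.25 (2.47%) and 1842 for BKC 1 (10.4%), and without Control replicate 4 these were 79 and 1067. Without DDAC 0.25 replicate 2 or 3 the first was 87 or 104, and without BKC 1 replicate 2 or 4 the second was 1113 or 1143. The 297 higher genes had a median of 0.166 against Control in DDAC 0.25 and -0.521 in BKC 1, and the 328 lower ones -0.118 and 0.562.

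At the dose value of 0.25, Hspa5 in DDAC differed from BKC by 0.04, with a 95% interval of -0.28 to 0.37. Acat2 differed by 0.20, with a 95% interval of -0.33 to 0.73. Neither passed the test, and the intervals, like those of Calr, Cyp51 and Timp1, hold differences of either sign. For 6 other genes the interval, which is not adjusted for the number of genes, lay on one side of 0 while the test over all genes was not passed. Ccl2 differed by 1.59, with a 95% interval of 0.56 to 2.63 (adjusted p = 0.359), and Ccl12 by 1.40, with a 95% interval of 0.13 to 2.67 (adjusted p = 0.622). Mki67 differed by -0.98, with a 95% interval of -1.63 to -0.34 (adjusted p = 0.38), and COX1 by -0.74, with a 95% interval of -1.17 to -0.31 (adjusted p = 0.315). Fmo2 differed by 0.84, with a 95% interval of 0.27 to 1.41 (adjusted p = 0.407), and Klf15 by 0.96, with a 95% interval of 0.25 to 1.67 (adjusted p = 0.481). Zbtb16 was higher by 3.42, with a 95% interval of 2.49 to 4.35 (adjusted p = 3.5e-05).

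**Figure D5:**
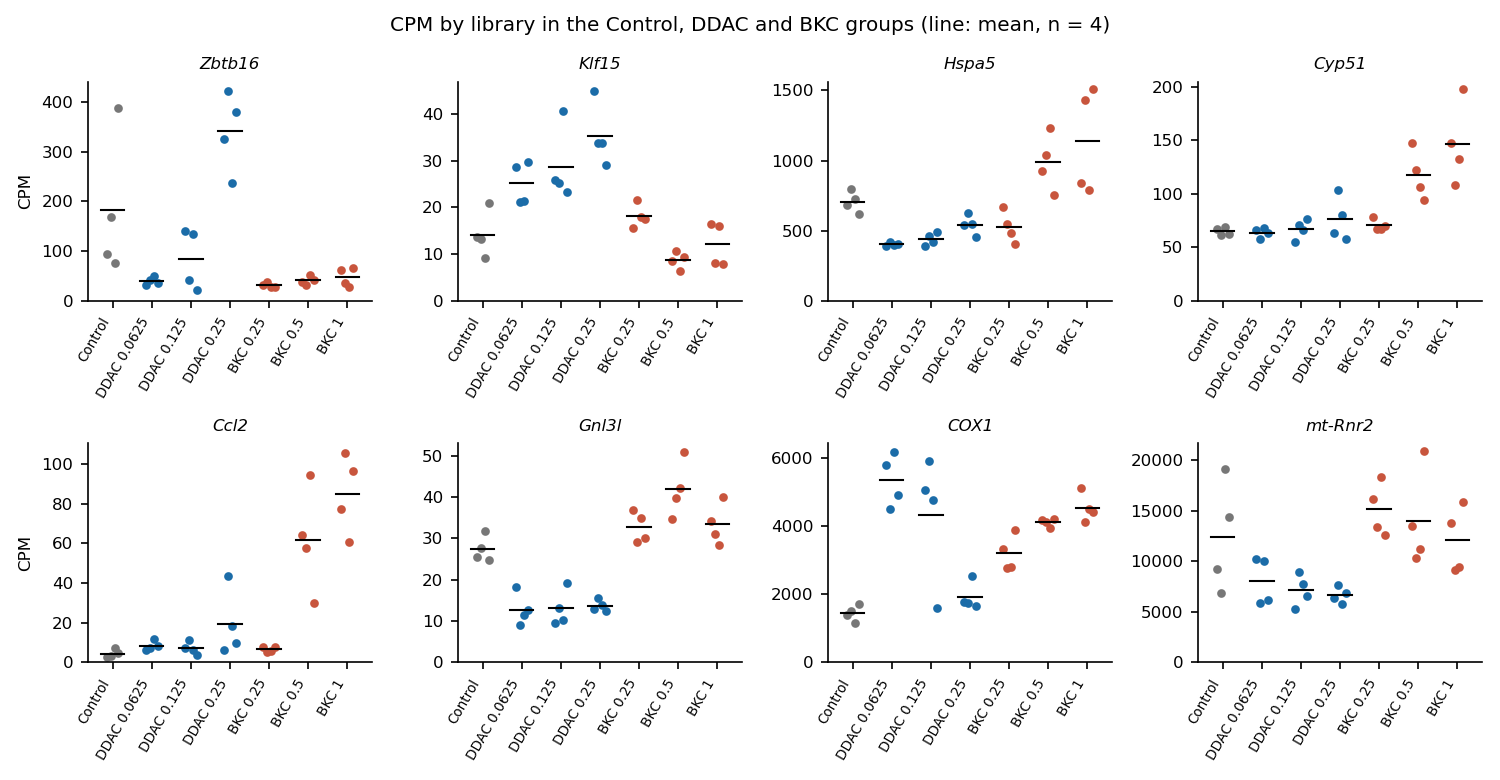
CPM (y axis) of 8 genes in each library of the Control, DDAC and BKC groups (x axis, dose value in a unit the labels do not state); lines are means of 4 libraries. Mean levels of Hspa5, Cyp51 and Ccl2 are higher in BKC 0.5 and BKC 1 than in BKC 0.25, and Gnl3l is low at all 3 DDAC doses. The mean of Hspa5 is lower at all 3 DDAC doses and in BKC 0.25 than in Control.

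Gnl3l and COX1 were chosen after their values were seen. The annotation and strand setting behind the counts are not given, so reads shared with an overlapping or antisense gene cannot be told apart in Gnl3l, COX1 and Trnd. Gnl3l, a nucleolar GTP-binding protein, was at 13, 15.6, 13.8 and 12.3 CPM in DDAC 0.25 and 34.1, 31, 28.5 and 40.1 CPM in BKC 1 (-1.29 ± 0.22, adjusted p = 0.00112) and held without any 1 library. It was also lower than in BKC 0.25 (-1.26, adjusted p = 0.00623) and in Control (-1.002, adjusted p = 0.0115). COX1, the mitochondrial gene of cytochrome c oxidase subunit 1, was at 1768, 1728, 2549 and 1644 CPM against 5133, 4113, 4513 and 4414 CPM (-1.24 ± 0.21, adjusted p = 0.00112) and held without any 1 library. It was lower than in BKC 0.5 too (-1.10, adjusted p = 0.0016), while the difference from BKC 0.25 did not pass, as given above. It was the only one of 13 mitochondrial DNA encoded genes of the list that was called. Trnd, the mitochondrial aspartate tRNA gene, was at 4.04 to 5.05 CPM against 9.87 to 15.5 CPM (-1.46 ± 0.34, adjusted p = 0.0103) and held without any 1 library too, but was not called with the clock score or with mt-Rnr2. The mitochondrial ribosomal RNA mt-Rnr2 was at 5758 to 7668 CPM against 9168 to 15881 CPM and did not pass (adjusted p = 0.0624). With its log2 level as a covariate, 6 of the 13 were called.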

How the data were processed

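RNA of rat lung was sequenced from the 3' end in 52 libraries, 13 groups of 4. Per the labels' protocols, RNA extraction used Trizol and each library was built from 500 ng of total RNA with a Lexogen QuantSeq kit. The submitters' processing notes list the tools fastp, STAR and HTSeq and the build mRatBN7.2, without versions. The deposited values are whole read counts per gene symbol, and no further step by the authors is stated. Annotation and strand setting: not given in the sources used here. Overlapping or antisense genes and near-identical copies can therefore share reads.

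Testing used the quasi-likelihood method of edgeR 4.0.16 (R 4.3.3, with limma 3.58.1) on the counts, with TMM scaling, low-count filtering by group (filterByExpr) and 1 term per group over all 52 libraries. This kept 17796 of 34034 symbols and left 39 residual degrees of freedom. P-values are two-sided and adjusted by Benjamini-Hochberg over all genes tested. CPM use TMM library sizes. The log2 levels behind the clock score, the cardiac score and the mt-Rnr2 covariate use a prior count of 2, and fold changes are those of edgeR at its default setting. Alternatives, with DESeq2 1.42.0 among them, stand in the closing section. Same-numbered libraries were checked and did not pair.

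Genes named by size are the 12 largest differences each way among called genes that do not overlap between groups and reach a mean of 5 CPM in 1 group, leaving out provisional symbols; some genes are not reported here. Up to 4 members of a list, and members needed to state what did not pass, were named with a short set of usual markers; further names in the text, such as the other called list members, were chosen after their values were seen. The comparison and the 40 lists were chosen with earlier results of these data known, and fits with the cardiac score or mt-Rnr2 were added after seeing the data. RefSeq's GRCr8 tables matched 29433 symbols. The 3 genes of a sex-linked list had 0 calls by edgeR, with 1 at an unadjusted p under 0.05.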

Additional observations from a re-analysis of the deposited data

Results flagged for a closer look

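In 8 of 174 sets of 4 values, each a gene or a list sum in 1 group, a single library stood far from the other 3, and chance marks about 1 in 20 such sets. Col4a6 was lowest in BKC 1 replicate 4 at 4.80 CPM, Il24 highest in DDAC 0.25 replicate 2 at 3.47 CPM, and Hs3st6 highest in DDAC 0.25 replicate 3 at 3.48 CPM. Among summed levels, cardiac muscle genes were highest in DDAC 0.25 replicate 2 at 207 CPM and smooth muscle and pericyte markers in DDAC 0.25 replicate 1 at 3142 CPM. In BKC 1, ion and water transport genes were lowest in replicate 3 at 1815 CPM, mesothelial, adipocyte and skeletal muscle markers highest in replicate 2 at 165 CPM, and oxidative stress (Nrf2) genes lowest in replicate 4 at 3186 CPM. No cause was tested.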

How the results depend on the processing

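The 625 calls became 662 with DESeq2 size factors, 1060 with the DESeq2 Wald test, 514 with no filter on low counts, 119 with the 8 libraries alone, 64 with the clock score, 315 with the cardiac score and 471 with mt-Rnr2 as a covariate. Lower genes were 52.5% of the 625 calls and 62.5%, 63.8% and 67.3% with these 3 covariates. Leaving out 1 library gave 111 to 808. Same-numbered libraries did not deviate together (correlations from -0.067 to 0.00849), and a replicate block gave 714 calls. The 111 genes at least 2-fold apart became 46 with the 8 libraries alone, 21 with the clock score and 65 with the cardiac score, and 35 to 196 without 1 library. The 522 at an unadjusted p became 960 with no filter and 416 to 691 without 1 library. Against Control, DDAC 0.25 had 828 calls by DESeq2 and 79 to 360 without 1 library, and BKC 1 had 1067 to 1849. DDAC 0.25 against BKC 0.25 gave 44 by DESeq2, 11 with no filter and 1 to 8 without 1 library, and against BKC 0.5 364 to 1624. Of 96 called genes that were named or listed, 23 stayed called with the clock score, 58 with the cardiac score and 31 with the 8 libraries alone, and 0 reversed in any of the settings run. The fit of 8 libraries tested 15003 genes on fewer samples; the cause of the other changes was not tested. Genes with few counts at a depth of 8666430 to 11836515 are the least precise.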

Other observations

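COX1 varied over the series in an order that differed between the compounds. Mean levels were 1442 CPM in Control, 5350 CPM in DDAC 0.0625, 4338 CPM in DDAC 0.125 and 1922 CPM in DDAC 0.25, and 3202, 4125 and 4543 CPM from the lowest to the highest BKC dose. In DDAC 0.125, replicate 4 was at 1605 CPM while the other 3 were at 4757 to 5913 CPM. In Trnd the same library stood apart, at 3.21 CPM beside 13.7 to 16 CPM.

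Gnl3l was at mean levels of 12.8, 13 and 13.7 CPM in the 3 DDAC groups from low to high dose, beside 27.5 CPM in Control and 32.8 to 42 CPM in the BKC groups. COX1 and Gnl3l were chosen after their values were seen, and the strand setting and annotation behind their counts and those of Trnd are not given.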
